A study of Mus musculus with 9 samples.

Results

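Chemokines are small secreted proteins that direct the movement of leukocytes, and this account follows 10 of their genes in mouse liver: Cxcl1, Cxcl9, Cxcl10, Cxcl12, Cxcl13, Ccl2, Ccl6, Ccl9, Ccl24 and Cx3cl1. They were taken by symbol from a table of 19944 genes, and all 10 were found and passed the filter on low values. The libraries came from livers of male mice aged 60 days on normal chow, whose titles name the FVB strain. Group WT was wild type, group KO carried a knockout of Snd1, and group KI carried a Tudor domain mutation in Snd1, with 3 libraries each. SND1 joins repeated nuclease-like units to a Tudor domain, a module known to bind methylated arginine residues. How the alleles were made, any Cre driver and the litters are not given in the sources used here. The libraries carry distinct animal numbers, and p-values measure the spread between these 9, which may be partly technical.

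Chemokines are named by the spacing of their first cysteines (CXC, CC and CX3C) and act on G protein-coupled receptors of leukocytes. Several atypical receptors bind and remove them without such signalling. CXCL1 attracts neutrophils through CXCR2, CXCL9 and CXCL10 attract T cells and natural killer cells through CXCR3, and CCL2 recruits monocytes through CCR2. CXCL12 is a homeostatic signal through CXCR4, CXCL13 guides B cells through CXCR5, and CX3CL1 is a membrane-bound ligand of CX3CR1. Inflammatory chemokine genes are classic targets of the transcription factor NF-kB, and CXCL9 and CXCL10 of interferon gamma.

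The design compares livers without SND1, or with a mutated Tudor domain, with wild-type livers. Cxcl9 fell in KO from a mean of 227 normalized counts in WT to 73.3, with every KO library under every WT library. Its neighbour Cxcl10 was at 7.1, 1.01 and 0 in KO against 15.4 to 29 in WT, a difference that missed the threshold. Cxcl1 was at 3473 and 1783 in KO_2 and KO_3, but at 169 in KO_1, which lay among the WT libraries (128 to 176). Cxcl12 and Ccl9, the most abundant of the 10, had group means from 12480 to 16077 and from 3129 to 3696. Between KI and WT none of the 10 passed the test.

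Libraries are named by group and replicate number, such as KO_1. A normalized count is the number of reads divided by a size factor of the library. Recovered depth was 59678412 to 66384374 reads per library. Snd1 was at 6512 to 8446 normalized counts in WT, 227 to 414 in KO and 5373 to 7941 in KI. By limma, a linear model over all genes, it fell in KO (log2 fold change -4.48, SE 0.23, adjusted p = 8.82e-06), while KI against WT did not pass (-0.23, adjusted p = 0.745). The label for cell type reads hepatocyte, and all 9 hepatocyte markers found in the table were present. So were markers of Kupffer cells, sinusoidal endothelium and stellate cells, which summed to at least 19660, 20198 and 15060 normalized counts in each library. The libraries thus hold RNA of more cell types than hepatocytes. Whether the RNA came from whole liver or from a hepatocyte preparation with other cells was not tested. In such bulk samples, fewer cells of a type and less RNA per cell cannot be told apart. Exocrine pancreas markers took 1.07% of the reads in WT_3, 0.439% in KI_1 and 5.13% in KI_3, and 0.00175% to 0.00524% in the other 6 libraries.

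The stretches upstream of Cxcl1, Cxcl9 and Cxcl10 are shown because Cxcl9 gave the one called difference, Cxcl10 lies beside it, and Cxcl1 was far apart between the KO libraries. Each is the 250 bases before the RefSeq start site in the reference genome (build GRCm38.p6), which is not the FVB strain, read 5′ to 3′ on the strand of the gene. Capitals mark a match, on either strand, to the kappaB consensus bound by NF-kB or to the core of the interferon-stimulated response element, searched as TTTC, any 2 bases and TTTC. Overlapping matches were allowed.
Cxcl1, chr5:90890995-90891244, plus strand: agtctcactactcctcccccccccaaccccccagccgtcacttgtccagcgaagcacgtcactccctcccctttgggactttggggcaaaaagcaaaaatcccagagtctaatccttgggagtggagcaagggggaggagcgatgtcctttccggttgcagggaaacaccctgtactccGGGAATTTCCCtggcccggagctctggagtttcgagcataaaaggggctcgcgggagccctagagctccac
Cxcl9, chr5:92328080-92328329, minus strand: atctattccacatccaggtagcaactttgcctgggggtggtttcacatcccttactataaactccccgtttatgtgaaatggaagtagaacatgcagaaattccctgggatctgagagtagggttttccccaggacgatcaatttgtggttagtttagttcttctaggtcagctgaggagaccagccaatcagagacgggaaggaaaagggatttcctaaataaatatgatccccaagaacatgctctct
Cxcl10, chr5:92348890-92349139, minus strand: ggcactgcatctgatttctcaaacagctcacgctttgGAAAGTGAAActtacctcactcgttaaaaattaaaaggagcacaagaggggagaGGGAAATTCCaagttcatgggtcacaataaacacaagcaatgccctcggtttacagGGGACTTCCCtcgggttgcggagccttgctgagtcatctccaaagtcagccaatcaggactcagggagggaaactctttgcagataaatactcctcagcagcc

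In the Cxcl1 window the kappaB consensus matched on both strands in overlapping places, 71 to 61 bases before the start. The Cxcl10 window held it in 2 places, 159 to 150 and 103 to 94 bases before the start, and held the interferon response core on the reverse strand at 213 to 204. The Cxcl9 window held neither, which says only that these letters are not in this window. Windows were found for 8 of the 10 genes, and none was matched for Ccl2 and Ccl24. The kappaB consensus was in 3 of these 8, namely Cxcl1, Cxcl10 and Ccl9, and in 3.9% of all 32851 windows of this length. The interferon response core was in 1 of the 8 and in 2.98% of all windows, and TTCNNNGAA, the palindrome bound by STAT factors, was in 0 of the 8 and in 7.02% of all.

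In KO against WT, limma called 1 of the 10 genes at an adjusted p under 0.05, and 8.83% of all 15238 genes tested were called. A share of 1 in 10 is near that background and is not in itself a result about chemokines. At an unadjusted p under 0.05 there were 7 of the 10, against 25% of all genes tested. Of these, Cxcl1, Cxcl13, Ccl2 and Ccl6 were higher in KO, and Cxcl9, Cxcl10 and Cxcl12 were lower. The 10 were chosen with earlier results of these data known, so this is not an independent count. Groups did not overlap in 6 of the 10, against 29.1% of all genes tested. Cxcl13, Ccl2 and Ccl9 were higher in every KO library, and Cxcl9, Cxcl10 and Cxcl12 lower. Ccl2 passed the filter, a mean of at least 10, with a mean of 10.4 (2.88 in WT, 15.8 in KO and 12.7 in KI). Cxcl10 passed at 13.3 (21.2 in WT, 2.7 in KO and 15.9 in KI). The filter kept both through the groups where they are high, so neither is an independent part of these counts. The median log2 fold change of the 10 was -0.00, with 5 positive and 5 negative, and that of all genes was 0.001.

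**Figure D1:**
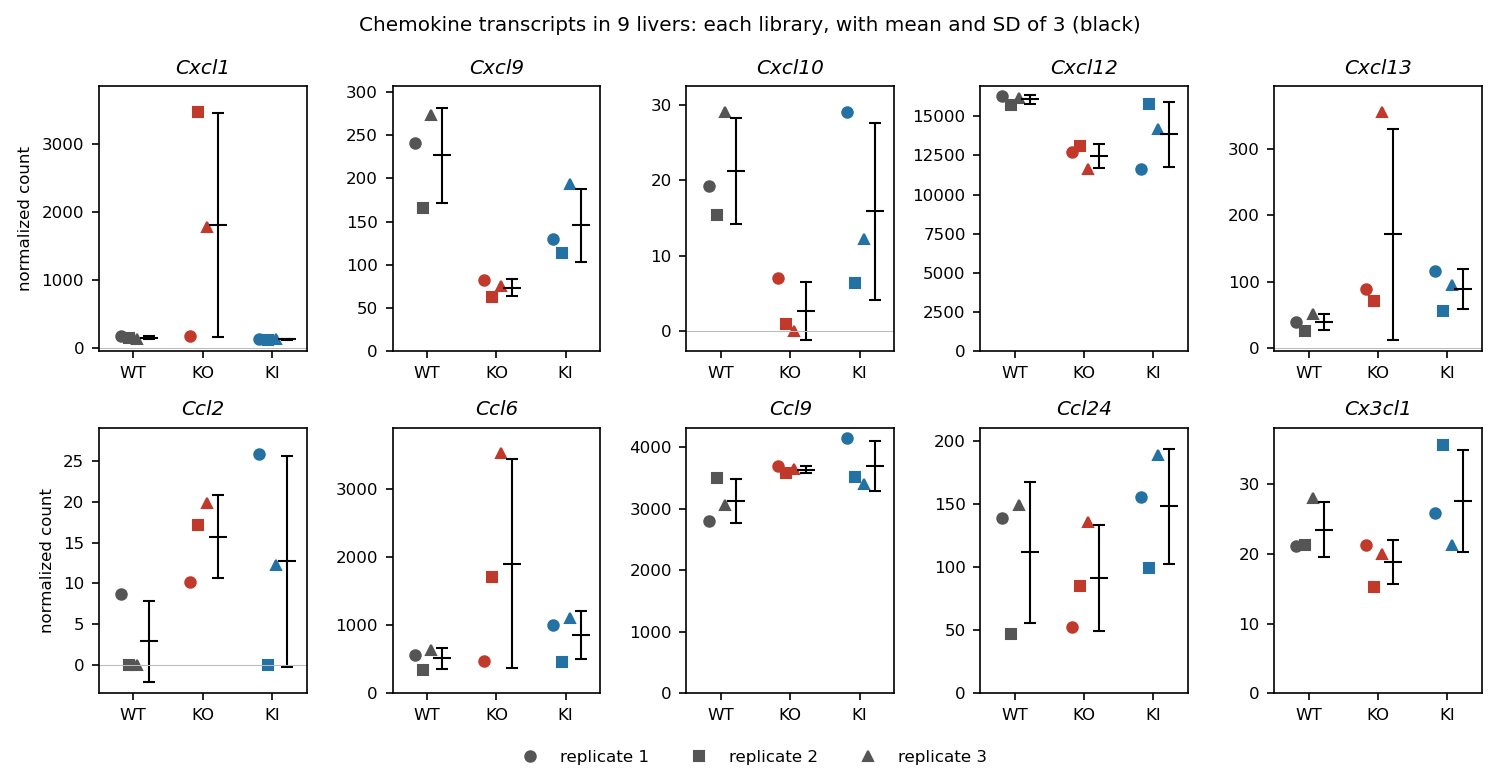
Normalized counts of the 10 chemokine genes (vertical axes, linear, a separate range per gene) in WT, KO and KI livers. Each point is a library with its shape giving the replicate number, and black bars show the mean and SD of 3; the Cxcl1 mean in KO rests on KO_2 and KO_3, while all 3 KO libraries lie under WT for Cxcl9.

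Cxcl9 (ENSMUSG00000029417) lies on chromosome 5 from 92321347 to 92328079 on the reverse strand of GRCm38, by GENCODE M21. It was at 241, 166 and 273 normalized counts in WT_1, WT_2 and WT_3, at 82.2, 62.8 and 75.1 in the KO libraries and at 130, 114 and 194 in the KI libraries. The KO libraries were close to each other and below all others, and KI lay between, with KI_3 above WT_2. WT averaged 227 ± 55.2, KO 73.3 ± 9.79 and KI 146 ± 42.3 (SD, n = 3 per group). Cxcl9 fell in KO, with a log2 fold change against WT of -1.59, an SE of 0.27 and a 95% interval of -2.20 to -0.99 (limma, adjusted p = 0.00746). Over the alternatives tried its adjusted p ran from 2.63e-06 to 0.0717. The call was lost without the 3 libraries that hold pancreatic transcripts (log2 fold change -1.44, adjusted p = 0.0717), and kept without WT_3, the one of them that enters this difference (adjusted p = 0.0365). KI against WT gave a log2 fold change of -0.64 (interval -1.24 to -0.03, limma adjusted p = 0.409), and KI against KO gave 0.95 (interval 0.35 to 1.56, adjusted p = 0.0588), with every KI library above every KO library.

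Cxcl10 (ENSMUSG00000034855) lies 18.6 kb from Cxcl9, from 92346638 to 92348889 on the same strand, inside the span of Art3 on the opposite strand. Only a few reads were behind it: 20, 16 and 29 reads in WT, 7, 1 and 0 in KO and 27, 7 and 11 in KI, and a count of 0 allows up to 3 reads. As normalized counts these were 19.2, 15.4 and 29 in WT, 7.1, 1.01 and 0 in KO and 29, 6.39 and 12.3 in KI. All KO libraries lay below all WT libraries, and KI_2 fell inside the KO range. The log2 fold change of KO against WT was -3.09 (interval -5.02 to -1.15, limma adjusted p = 0.0546), which did not pass. Over 17 alternatives it ran from -3.92 to -1.84, with adjusted p from 0.00976 to 0.169, and 3 of them passed. One that passed left out KO_1, the KO library with the most reads (-3.92), and the smallest value, -1.84, came with a pseudocount of 5.

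The third ligand of CXCR3, Cxcl11, which is not among the 10, was named after its values were seen. GENCODE M21 lists it as a polymorphic pseudogene, and it lies 10.7 kb further along. It was at 59.5, 38.5 and 36 normalized counts in WT and at 22.3, 20.3 and 16.3 in KO, again without overlap (log2 fold change -1.12, limma adjusted p = 0.115). KI gave 21.5, 32.9 and 46. The receptor gene Cxcr3, likewise named with its values known, was at 23, 9.63 and 31 in WT and at 30.4, 25.3 and 14.5 in KO, with overlap.

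T and natural killer cells, which CXCR3 ligands attract, had 0 of 8 tested markers called in KO against WT (limma), against 8.83% of all genes. Of the 8, 1 had an unadjusted p under 0.05, against 25% of all genes. The median log2 fold change of that list was -1.17, with 2 values positive and 6 negative. Its 11 markers summed to 313 to 318 normalized counts in WT, 227 to 451 in KO and 300 to 382 in KI, so KO_3 was above and KO_1 and KO_2 were below the WT range. Cd4, the largest part of this sum in each group, had means of 118 in WT and 203 in KO (log2 fold change 0.72, limma adjusted p = 0.144). Cd3e went the other way, from 47.2 to 15.1 without overlap (-1.45, limma adjusted p = 0.203). Both were named after their values were seen. Cd3d, Trac and Ncr1 were at 0 in KO_1, and Klrb1c in KI_1 and KI_3. Their part in the Cxcl9 result was not tested.

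Cxcl1 (ENSMUSG00000029380), the CXCR2 ligand, spans 90891241 to 90893115 of chromosome 5, plus strand. It was at 176, 144 and 128 normalized counts in WT, at 169, 3473 and 1783 in KO_1, KO_2 and KO_3 and at 136, 116 and 126 in KI. KO_2 and KO_3 stood far above every other library, and KO_1 lay within the WT range. WT averaged 149 ± 24.7, KO 1808 ± 1652 and KI 126 ± 10.2 (SD, n = 3 per group). With that spread the KO against WT value of 2.77 (log2 fold change, SE 0.84, interval 0.90 to 4.65) did not pass in limma (adjusted p = 0.07). Over 19 alternatives it ran from 1.89 to 4.06, with adjusted p from 1.66e-05 to 0.267, and 3 of them passed. These were edgeR (3.60, adjusted p = 0.0239), DESeq2 (3.59) and the fit without KO_1, the KO library at the WT level (4.06). Without KO_2 the value was 1.89 (limma adjusted p = 0.231). KI was below every KO library (log2 fold change -3.01, limma adjusted p = 0.0553, over 19 alternatives -4.30 to -2.12 with adjusted p from 1.45e-05 to 0.472).

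The sum of neutrophil markers was also highest in KO_2 and KO_3. Of 11 such markers 7 were in the table and 5 were tested. Limma called 1 higher in KO than in WT, the protease gene Prtn3 (log2 fold change 6.26, adjusted p = 6.96e-04), where 8.83% of all genes were called. All 5 values of KO against WT were positive. Prtn3 averaged 5.21 in WT, 403 in KO and 12.8 in KI, and Retnlg 10.7, 79.5 and 4.07. The filter kept both through KO, where they are high, so neither is an independent part of these counts. The smallest of the 5 log2 fold changes was that of Csf3r, named after its values were seen (0.35, limma adjusted p = 0.705). The 7 genes summed to 100 to 249 normalized counts in WT, 467, 1342 and 2012 in KO_1, KO_2 and KO_3 and 98.8 to 371 in KI. The calprotectin genes S100a8 and S100a9, named after their values were seen, were at 28.4 and 52.7 in KO_1, inside the WT ranges of 8.67 to 47 and 20.2 to 93.1, and at 226 and 437 in KO_2 and 404 and 771 in KO_3. Most of the sum in KO_1 was Prtn3 (274). Elane was at 0 in all WT libraries, Ngp in KO_1 and all KI libraries, and Retnlg in KI_1. Their part in the Cxcl1 values was not tested.

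**Figure D2:**
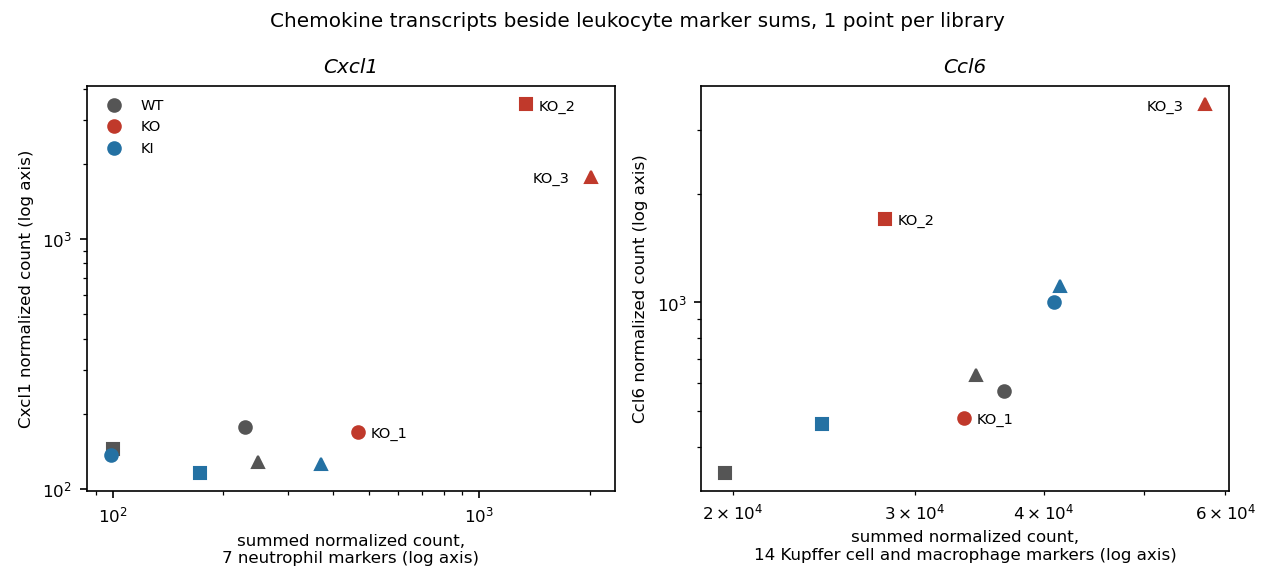
Left, Cxcl1 against the summed normalized counts of 7 neutrophil markers; right, Ccl6 against those of 14 Kupffer cell and macrophage markers, 1 point per library, all axes logarithmic, with marker shapes giving the replicate number as in the plot of the 10 genes. KO_2 and KO_3 stand apart on the left (Cxcl1 at 3473 and 1783), whereas KO_2 on the right has a Ccl6 of 1702 at a marker sum inside the WT range.

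Cxcl12, on chromosome 6 from 117168535 to 117181367, was the most abundant of the 10. It was at 16323, 15743 and 16166 normalized counts in WT, at 12737, 13091 and 11612 in KO and at 11653, 15763 and 14161 in KI. The KO libraries lay below WT without overlap, and KI spread from the KO to the WT level. KO against WT gave a log2 fold change of -0.37 (SE 0.13, interval -0.66 to -0.08) that did not pass in limma (adjusted p = 0.112). DESeq2 gave the same -0.37 with an adjusted p of 0.0422. Its receptor genes Cxcr4 and Ackr3, named for that role, were not called (limma adjusted p = 0.886 and 0.384 in KO against WT).

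Cxcl13, the B cell attractant, was at 40.3, 27 and 52.1 normalized counts in WT, at 89.2, 70.9 and 355 in KO and at 116, 56.6 and 95.3 in KI. All KO and all KI libraries were above all WT libraries, and KO_3 was the highest by far. Cxcl13 was the one gene of the 10 whose KI and WT groups did not overlap. The log2 fold changes were 1.74 for KO (interval 0.50 to 2.99, limma adjusted p = 0.0846) and 1.13 for KI (interval -0.12 to 2.38, adjusted p = 0.478), which share the WT libraries. Markers of B and plasma cells summed to 295 to 527 in WT, 378 to 544 in KO and 352 to 621 in KI. In both comparisons limma called 0 of 6 tested, none of them at an unadjusted p under 0.05. Over all genes limma called 8.83% in KO against WT and 0.0263% in KI against WT. An unadjusted p under 0.05 was reached by 25% and 11.6% of all genes. Ms4a1 was at 0 in KO_1 and Mzb1 in 4 libraries, and the part of these markers in the Cxcl13 values was not tested.

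Among the CC chemokines Ccl6, a macrophage and granulocyte product of the mouse, had a spread like that of Cxcl1. It was at 568, 339 and 632 normalized counts in WT, at 481, 1702 and 3525 in KO_1, KO_2 and KO_3 and at 1006, 461 and 1111 in KI. KO_1 again lay within the WT range, KO_2 and KO_3 lay above every other library, and KI_1 and KI_3 lay above WT. The log2 fold change of KO against WT was 1.52 (interval 0.15 to 2.89, limma adjusted p = 0.156). It was 2.30 without KO_1 (adjusted p = 0.00585), the 1 of 19 alternatives that passed, and 0.87 without KO_3 (adjusted p = 0.387). For KI against WT it was 0.69 (interval -0.68 to 2.06, adjusted p = 0.712). KI against KO gave -0.83 (adjusted p = 0.445), with -1.61 without KO_1 (adjusted p = 0.0334) and -0.17 without KO_3 (adjusted p = 0.88).

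Ccl9 lies 9.2 kb from Ccl6 on chromosome 11 and is made by myeloid cells too, but its values were even across libraries. It was at 2808, 3510 and 3068 normalized counts in WT, at 3694, 3579 and 3648 in KO and at 4155, 3521 and 3411 in KI. KO lay just above WT without overlap, with a log2 fold change of 0.22 (interval -0.03 to 0.48, limma adjusted p = 0.265). The interval for KI against KO, -0.24 to 0.27, was among the narrowest of the 10.

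Ccl2, the CCR2 ligand, was near the limit of detection, with 9, 0 and 0 reads in WT, 10, 17 and 22 in KO and 24, 0 and 11 in KI. Each KO library had more than each WT library, but KI_2 had 0. The log2 fold change of KO against WT was 2.93 on the log2(value + 1) scale, with an interval of 0.02 to 5.84 (limma adjusted p = 0.198). Gm17268, annotated on the opposite strand, overlaps Ccl2, and the strand setting of the counting is not given.

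Ccl24, an eosinophil attractant that acts on CCR3, was at 139, 47.2 and 149 normalized counts in WT, at 52.7, 85.1 and 136 in KO and at 156, 99.5 and 189 in KI. All 3 groups overlapped, and WT_2 was the lowest library of all 9. The log2 fold change was -0.23 for KO against WT (interval -1.31 to 0.85, limma adjusted p = 0.823) and 0.52 for KI against WT (interval -0.56 to 1.60, adjusted p = 0.723). The KO value turned in sign without WT_1 (0.01), WT_3 (0.06) or KO_1 (0.11). Cx3cl1 was at 21.1, 21.2 and 28 in WT, at 21.3, 15.2 and 19.9 in KO and at 25.8, 35.6 and 21.3 in KI, again with overlap. Its log2 fold change was -0.31 for KO against WT (interval -1.18 to 0.57, adjusted p = 0.692). Intervals this wide do not show that either gene was at the same level in the groups.

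Macrophages are one source of Ccl6, Ccl9 and Ccl24. All 14 Kupffer cell and macrophage markers were tested, and 3 rose in KO against WT, Mpeg1, a perforin-like gene (log2 fold change 1.27, limma adjusted p = 0.00276), and the scavenger receptor genes Marco (1.75, adjusted p = 0.0364) and Cd163 (1.24, adjusted p = 0.0436). The other 11 were not called, 9 of the 14 values were positive and 5 negative, and the median was 0.19. Of all genes tested 8.83% were called in KO against WT. Mpeg1 passed in all 19 alternatives, but Marco and Cd163 each in 11, with adjusted p up to 0.151 and 0.153. The 14 summed to 19660 to 36585 normalized counts in WT, 28087 to 57352 in KO and 24380 to 41508 in KI. WT_2 had the lowest sum and KO_3 the highest, as they did for Ccl6 over all 9 libraries, while KO_2, with a Ccl6 of 1702, had a sum of 28087, inside the WT range. None of the 14 was at 0 in any library, and their part in the Ccl6 values was not tested.

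**Figure D3:**
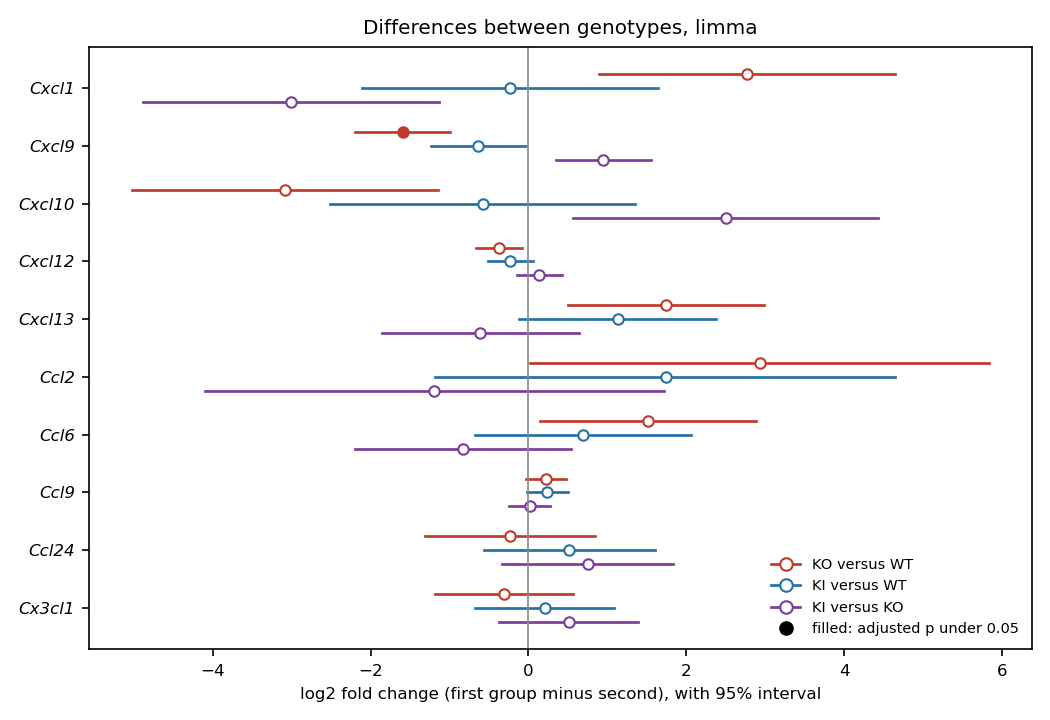
Log2 fold changes of the 10 genes (horizontal axis, first group minus second) with 95% intervals from limma, for KO versus WT, KI versus WT and KI versus KO. A filled point marks an adjusted p under 0.05, and only Cxcl9 in KO versus WT has one; the intervals for Cxcl12 and Ccl9 are the narrowest and those for Ccl2, with few reads, the widest.

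Divided by exon length from GENCODE M21, the order of levels in WT was Cxcl12, Ccl9, Ccl6, Ccl24, Cxcl1, Cxcl9, Cxcl13, Cxcl10, Cx3cl1 and Ccl2. Cxcl12 was at 1966 ± 36.7 normalized counts per kb, Ccl9 at 1027 ± 116 and Ccl6 at 286 ± 85.7 (SD, n = 3), and these did not overlap. Ccl24, Cxcl1 and Cxcl9 formed a middle set at 86.4, 79.7 and 75.1 per kb whose neighbours overlapped, as did Cxcl10, Cx3cl1 and Ccl2 at 9.42, 5.97 and 2.53. In KO the order was Cxcl12, Ccl9, Ccl6, Cxcl1 and Cxcl13 at 1526, 1195, 1060, 964 and 149 per kb, with Cxcl10 last at 1.2. From Ccl9 to Ccl24 each gene in KO overlapped the next. KI kept Cxcl12, Ccl9 and Ccl6 on top (1695, 1214 and 479 per kb), again without overlap.

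Between KI and WT, limma called 0 of the 10, where it called 0.0263% of all genes. At an unadjusted p under 0.05 there was 1 (Cxcl9), against 11.6% of all genes. edgeR and DESeq2 also called 0 of the 10, where they called 1 and 372 of all 15238 genes. Groups did not overlap in 1 of the 10, Cxcl13, against 19.6% of all genes, and the median log2 fold change of the 10 was 0.22 against 0.004 over all genes. Between KI and KO, limma called 0 of the 10, where it called 8.45% of all genes. At an unadjusted p under 0.05 there were 3, against 24.9% of all genes. edgeR called Cxcl1, and DESeq2 called Cxcl1 and Cxcl9, where they called 1200 and 2286 of all 15238 genes. Groups did not overlap in 2 of the 10, Cxcl1 lower and Cxcl9 higher in KI, against 26.4% of all genes. The median of the 10 was 0.08, and that of all genes 0.011. The comparisons of KO and KI with WT share the 3 WT libraries.

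Other chemokine ligands were followed from a list of 27, of which 17 were in the table and 10 passed the filter. Limma called 0 of these 10 in KO against WT, against 8.83% of all genes. At an unadjusted p under 0.05 there were 2, against 25% of all genes, and the median log2 fold change of the 10 was -0.29. Of the 10, edgeR called 0 and DESeq2 called 1, Cxcl14, an epithelial chemokine named here after its values were seen. It was at 16.3, 32.8 and 30 normalized counts in WT and at 30.4, 96.2 and 97.7 in KO, so KO_2 and KO_3 were high and KO_1 was not (log2 fold change 1.35, limma adjusted p = 0.147). Cxcl2, the close relative of Cxcl1, likewise named with its values known, was at 0 in all WT libraries and at 2.03, 0 and 2.71 in KO.

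Among 11 tested receptor genes of 18 listed, limma called 0 in each of the 3 comparisons, and so did edgeR and DESeq2. At an unadjusted p under 0.05 there was 1 in KO against WT, 0 in KI against WT and 1 in KI against KO. Over all genes these shares were 25%, 11.6% and 24.9%, and limma called 8.83%, 0.0263% and 8.45%. Cxcr2, the receptor for CXCL1, was at 17.3, 3.85 and 17 normalized counts in WT, 10.1, 40.5 and 95 in KO and 15, 31.1 and 46 in KI (KO against WT, log2 fold change 1.60, limma adjusted p = 0.266). Cx3cr1, the fractalkine receptor, was at 232, 169 and 203 in WT and at 175, 110 and 93.2 in KO (log2 fold change -0.71, adjusted p = 0.148), and without KO_1 gave -0.97 (adjusted p = 0.0349). The median of the 11 in KO against WT was 0.36. These genes were named after their values were seen.

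The 5 listed atypical receptors all passed the filter. Limma called 0 of the 5 in KO against WT, against 8.83% of all genes, and edgeR and DESeq2 called 0 of the 5. At an unadjusted p under 0.05 there were 2, against 25% of all genes. The median log2 fold change of the 5 was -0.98. Ackr4, a scavenger of CC chemokines, was at 48, 41.4 and 56.1 normalized counts in WT, 22.3, 6.08 and 29 in KO and 79.4, 44.8 and 63.9 in KI. KO lay below both other groups without overlap (KO against WT, log2 fold change -1.53, limma adjusted p = 0.102; KI against KO, 1.86, adjusted p = 0.0558). In KI against KO limma called 0 of the 5, against 8.45% of all genes. At an unadjusted p under 0.05 there were 2, against 24.9% of all genes. In that comparison edgeR called 0 of the 5, and DESeq2 called Ackr4 and Ackr3. Limma called Ackr4 there without KO_1, without KO_3, with a pseudocount of 5 and with the replicate number as a block. It called Ackr3 there without KI_2. Ackr1, which binds many inflammatory chemokines on venules, was at 125, 52 and 150 in WT and at 46.6, 14.2 and 73.3 in KO (log2 fold change -1.41, adjusted p = 0.156). Both were named after their values were seen.

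Of 9 proteases that can cut or shed chemokines, 3 rose in KO against WT, 0 fell and 6 were not called by limma. Their median log2 fold change was 0.53. Over all genes tested 8.83% were called, at a median of 0.001. Leaving out any one of WT_1, WT_2, KO_2 and KO_3 took the count to 1, Mmp14. Mmp14, a membrane-bound matrix metalloproteinase, averaged 1103 ± 56.5 normalized counts in WT and 2375 ± 447 in KO (SD, n = 3), or 1.09 higher on the log2 scale (limma adjusted p = 0.00531). Adam10, the constitutive sheddase of CX3CL1, went from 1878 to 2677 (0.51 on the log2 scale, adjusted p = 0.0157). Mmp8, the neutrophil collagenase, was at 1.92, 0 and 6.01 in WT and at 10.1, 112 and 146 in KO (log2 fold change 4.38, adjusted p = 0.0418), and was lower in KO_1 than in KO_2 and KO_3. It averaged 2.64 in WT, 89.4 in KO and 9.79 in KI. The filter kept Mmp8 through KO, where it is high, so it is not an independent part of the count. Mmp14 and Adam10 were also lower in KI than in KO (log2 fold changes -1.20 and -0.45, adjusted p = 0.00364 and 0.0284). Dpp4, named after its values were seen, trims the amino terminus of CXCL9, CXCL10 and CXCL12. It was at 9847 in WT, 7913 in KO and 7947 in KI, with every KO and KI library below every WT library. It did not pass in limma in KO against WT (log2 fold change -0.32, adjusted p = 0.107) or KI against WT (-0.31, adjusted p = 0.327). DESeq2 called it lower in KO against WT. Without the 3 libraries with pancreatic transcripts, which leaves fewer libraries, Mmp14 was the only one called in KO against WT and none in KI against KO. The log2 fold changes of KO against WT were then 0.53 for Adam10 and 5.06 for Mmp8, and those of KI against KO -0.89 for Mmp14 and -0.48 for Adam10.

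The NF-kB list holds inducers and targets shared with inflammatory chemokines. In KO against WT limma called 7 of its 22 tested members higher and 1 lower, and 14 were not called. Its median log2 fold change was 0.19, with 16 values positive and 6 negative. Over all genes tested 8.83% were called, at a median of 0.001. Nfkbia, Tnfaip3 and Nfkb2, named after their values were seen, were at -0.37, -0.07 and -0.04 and not called. Without WT_3 limma called Nfkbia lower. Icam1, an adhesion molecule gene for leukocytes, was at 354, 434 and 434 normalized counts in WT, 1353, 1781 and 1793 in KO and 678, 458 and 584 in KI (KO mean 4.04 times the WT mean, limma adjusted p = 3.13e-04). All 3 KO libraries were above every WT and KI library, KO_1 included. Il1r1, the interleukin-1 receptor gene, went from 3687 to 18232 (2.39 on the log2 scale, limma adjusted p = 0.00299), Nfkbiz, a nuclear co-regulator of NF-kB, from 224 to 626 (1.45, adjusted p = 0.00827) and Tnfrsf1b from 2062 to 3512 (0.76, adjusted p = 0.0125). The one that fell was Sod2, named after its values were seen (log2 fold change -0.39, limma adjusted p = 0.0395), a call kept in 7 of 19 alternatives. Without KO_2 the list had 3 calls in KO against WT (Icam1, Il1r1 and Nfkbiz). In KI against KO 5 of 22 were lower, Icam1, Nfkbiz and Il1r1 among them, where 8.45% of all genes tested were called. In KI against WT limma called 0 of the 22, against 0.0263% of all genes, and edgeR and DESeq2 called 0 each. At an unadjusted p under 0.05 there were 3, against 11.6% of all genes. Without the 3 libraries with pancreatic transcripts 2 were called in KO against WT (Icam1 and Il1r1) and 0 in KI against KO. The log2 fold changes of KO against WT were then 2.05 for Icam1 and 0.74 for Tnfrsf1b, which was no longer called, and those of KI against KO -1.83 for Icam1 and -1.88 for Il1r1.

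Of 23 tested interferon-induced genes, limma called 1 higher and 0 lower in KO against WT, at a median log2 fold change of 0.08, and the one was Stat2, a subunit of the type I interferon transcription factor (1570 to 2952 normalized counts, log2 fold change 0.88, adjusted p = 0.0106). Irf1, a regulator of Cxcl9 chosen with its values known, was at 1462, 1069 and 1064 in WT and 927, 1359 and 1361 in KO, with overlap, and at 747, 705 and 851 in KI, below every library of both. It did not pass in limma in KI against WT (log2 fold change -0.63, adjusted p = 0.223) or KI against KO (-0.64, adjusted p = 0.0573), and DESeq2 called it in KI against KO. Stat2 was also lower in KI than in KO (log2 fold change -0.72, adjusted p = 0.0255), the single limma call of this list there. Over all genes tested, limma called 8.83% in KO against WT and 8.45% in KI against KO. In KI against WT limma called 0 of the 23, against 0.0263% of all genes, and edgeR and DESeq2 called 0. At an unadjusted p under 0.05 there were 4, against 11.6% of all genes. Without the 3 libraries with pancreatic transcripts 0 were called in each of the 3 comparisons, with Stat2 at 0.92 in KO against WT and -0.75 in KI against KO on the log2 scale.

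**Figure D4:**
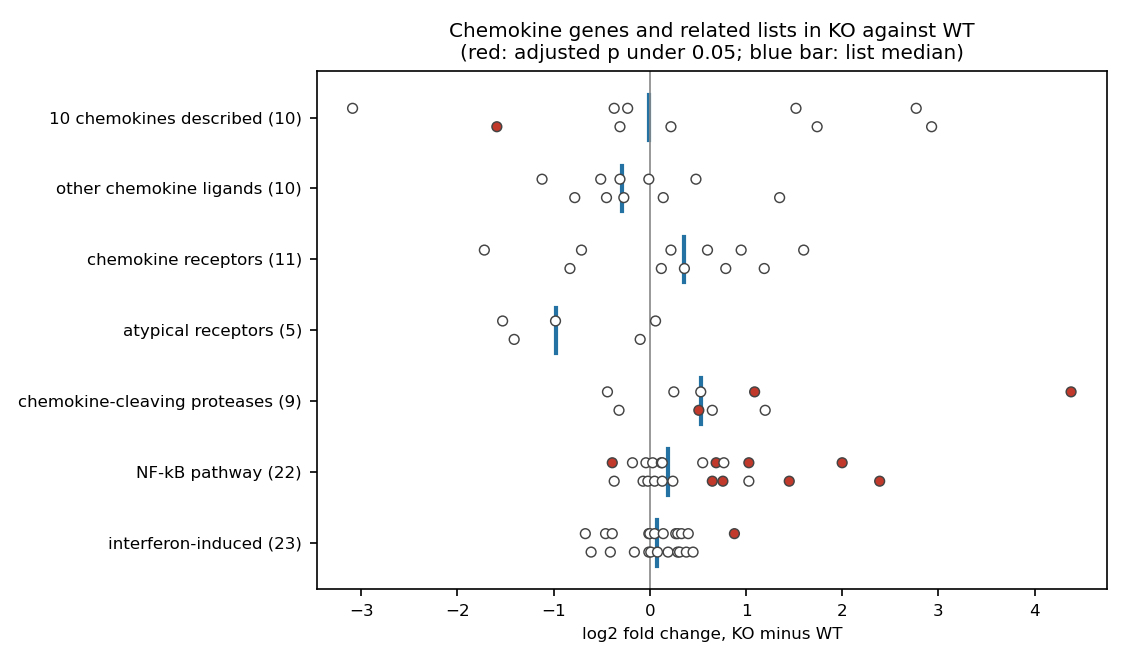
Log2 fold changes of KO against WT for the tested genes of 7 lists (number tested in parentheses), 1 point per gene, with red points for an adjusted p under 0.05 by limma and a blue bar for the list median. The 10 chemokines span from -3.09 (Cxcl10) to 2.93 (Ccl2), both genes with few reads, around a median of -0.00. Receptors and atypical receptors have no red point and the NF-kB list has 8.

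The genes most like Cxcl9 in pattern were Pcsk4, Polg2 and Serpina12. Likeness was the mean, over the 9 libraries, of the absolute difference between the log2 deviations of a pair of genes from their own WT means, and it was 0.229, 0.243 and 0.244 for these 3, where Cxcl9 itself deviated by a mean of 0.836. Chosen after their values were seen, the nearest genes to Cxcl1 were Serpina3n, a hepatic acute phase gene, Hpx, which encodes the heme carrier hemopexin, and Mid1 (0.339, 0.416 and 0.44, where Cxcl1 deviated by 1.058). Those to Ccl6 were Cd14, a lipopolysaccharide co-receptor gene of macrophages, Ms4a6d and Sla (0.212, 0.24 and 0.261, where Ccl6 deviated by 0.892).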

How the data were processed

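Liver RNA was measured in 9 stranded mRNA libraries. TopHat2, Bowtie2, featureCounts and the build GRCm38 are named per the submitters' processing notes; versions, annotation, strand setting and scaling tool are not given in the sources used here. The authors deposited normalized counts, a signal in which each library's gene reads are divided by 1 size factor (0.8921 to 1.1051). Whole reads were recovered by undoing this, and all but 5 values came out whole within 0.0051 deposited units (at least 99.995% per library). Among genes with few reads, even numbers made up 58.1% to 63.1%, so 2 reads may be mates of 1 fragment, which was not tested.

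Values were tested as log2(value + 1), pseudocount 1, in genes with a mean of at least 10, by limma 3.58.1 (R 4.3.3) with a variance trend over all 9 libraries, two-sided, with Benjamini-Hochberg adjustment over 15238 genes and calls at an adjusted p under 0.05. On this scale fold changes of genes with few reads depend on the pseudocount. edgeR 4.0.16 and DESeq2 1.42.0 on recovered reads were alternatives. Columns were matched to samples by animal number, since replicate numbers differ between titles and headers. Same-numbered libraries did not deviate together in every pair (correlations from -0.136 to 0.568), so they were not treated as paired. No library repeats another of its group: the closest pair within a group had a chi-square of 68.1 for each degree of freedom. Pairs from different groups were not checked.

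The members and gene lists were chosen with earlier results of these data known. Named genes are the 10 chemokines, called members of the lists by smallest adjusted p, and the 3 genes most like a called chemokine; others are said to be chosen after their values were seen. Other lists of markers were also counted in KO against WT. Limma called 0 of 8 tested genes for monocytes and dendritic cells, 0 of 10 for endothelium and 0 of 11 for stellate cells. It called 1 of 6 for cholangiocytes, 1 of 9 for hepatocytes and 0 of 13 for exocrine pancreas, against 8.83% of all genes.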

Additional observations from a re-analysis of the deposited data

How the results depend on the processing

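Each comparison was repeated with other pseudocounts, filters, scaling, tools and sets of libraries. Over the 10 genes and 3 comparisons, 516 of the repeated values kept direction and call, 17 newly passed, 1 no longer passed and 9 turned in sign. In KO against WT the number of the 10 called was 1, and became 2 with edgeR, 5 with DESeq2 (Cxcl1, Cxcl9, Cxcl10, Cxcl12 and Cxcl13) and 0 without the 3 libraries with pancreatic transcripts, where 8 were tested and KI has 1 library assumed to vary like the other groups. Leaving out 1 library at a time gave 1 to 4, the 4 (Cxcl1, Cxcl9, Cxcl10 and Ccl6) without KO_1. In KI against KO it was 0, then 1 with edgeR, 2 with DESeq2 and 0 to 3 when 1 library was left out, the 3 (Cxcl1, Cxcl10 and Ccl6) without KO_1. In KI against WT it stayed at 0 under every alternative run. Counts over all genes rose too. In KO against WT DESeq2 called 2293 of 15238 and the fit without KO_1 2509 of 15303, where the main fit called 1346. In KI against KO these were 2286 and 2299, where the main fit called 1287.

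With the replicate number as a block, which the labels do not tie to litters or batches, 3 of the 10 were called in KO against WT (Cxcl9, Cxcl10 with adjusted p = 0.0452 and Cxcl13 with adjusted p = 0.0349 by limma), 1 in KI against KO (Cxcl9) and 0 in KI against WT. With this block limma called 1551 of all 15238 genes in KO against WT, 1500 in KI against KO and 3 in KI against WT.

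The log2 fold changes that turned in sign were uncalled in each setting: Ccl24 in KO against WT at 0.01 without WT_1, 0.06 without WT_3, 0.11 without KO_1 and 0.06 without the 3 libraries, Ccl24 in KI against WT at -0.01 without WT_2, and in KI against KO Ccl9 at -0.07 without KI_1 and -0.05 without the 3 libraries, Cxcl13 at 0.10 without KO_3 and Ccl2 at 0.22 without KI_2. Leaving out 1 library at a time, these ran from -0.76 to 0.11, -0.01 to 0.81, -0.07 to 0.07, -1.05 to 0.10 and -1.65 to 0.22. Cxcl10, Ccl2 and Cx3cl1 were not tested at a mean of at least 50.

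Over all genes, limma called 1346 in KO against WT, 4 in KI against WT and 1287 in KI against KO. DESeq2 called 2293, 372 and 2286, edgeR called 1210, 1 and 1200, and a fit of only the 2 groups compared called 874, 31 and 616. Without the 3 libraries the counts were 226, 0 and 13, and leaving out 1 library gave 501 to 2509, 0 to 35 and 400 to 2299. In KI against WT 8 were called with no filter and 7 at a mean of at least 50. At the depth of Cxcl10 and Ccl2, under 30 reads in each library, a difference of a few reads changes the value.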
